A study of Mus musculus with 3 samples.

Results

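Ifitm1, Ifitm2 and Ifitm3 encode small membrane proteins of the interferon-induced transmembrane family. They were chosen from the read counts themselves. The choice named 3 rows of the count table that were highest in effector memory T cells while most interferon-induced genes were not. They make up 3 of the 25638 gene names in the table. Because the levels chose them, their order across the libraries is a description and carries no test. RNA was sequenced from splenic CD8+ T cells of mice labelled wild type and untreated. There was 1 library for each of 3 groups: effector memory cells, central memory cells and naive cells. How many animals stand behind a library is not stated in the labels, nor are the sort gates. With 1 library per group no difference has a replicate check, so each ratio compares 2 libraries, and intervals are 95% counting intervals that cover counting error only.

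IFITM proteins sit in the plasma membrane and in endosomal and lysosomal membranes, where they hinder the fusion of enveloped viruses with the cell. In mouse, all 3 genes can be induced by type I and type II interferons, and many tissues also express them without interferon. In human cells IFITM1 lies mostly at the cell surface, while IFITM2 and IFITM3 are drawn into endosomes by a sorting signal in their longer N-terminal part. In mouse lung, memory CD8+ T cells that stay in the tissue are known to keep Ifitm3 on, which protects them during a second influenza infection.

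The 3 genes lie side by side on mouse chromosome 7. In GENCODE M21 (build GRCm38, the same assembly as the mm10 named by the submitters) Ifitm2 (ENSMUSG00000060591.9) spans chr7:140954837-140955987 on the minus strand, Ifitm1 (ENSMUSG00000025491.14) spans chr7:140967221-140969825 on the plus strand, and Ifitm3 (ENSMUSG00000025492.6) spans chr7:141009586-141010770 on the minus strand. Together they occupy 55.9 kb. Ifitm2 and Ifitm3 each have 1 annotated transcript with 2 exons, and Ifitm1 has 3 transcripts from 3 start sites. The coding sequences are 321 bases long in Ifitm1, 435 in Ifitm2 and 414 in Ifitm3. Ifitm2 and Ifitm3 are the closer pair, with 74.9% identical positions in a global alignment, beside 63.0% for Ifitm1 and Ifitm3 and 59.8% for Ifitm1 and Ifitm2.

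The promoter windows are shown because the 3 genes had the same order of levels, and because other genes known as interferon targets did not. The windows are from RefSeq (GRCm38.p6), run from 250 bases before to 50 bases after 1 annotated start, and were found for all 3 members. They cover chr7:140967826-140968125 on the plus strand for Ifitm1, chr7:140955912-140956211 on the minus strand for Ifitm2 and chr7:141010695-141010994 on the minus strand for Ifitm3. Capitals mark each match to AAANNGAAA, the core of the interferon-stimulated response element, and to TTCNNNGAA, the core of the gamma-activated site, both searched on both strands.
Ifitm1: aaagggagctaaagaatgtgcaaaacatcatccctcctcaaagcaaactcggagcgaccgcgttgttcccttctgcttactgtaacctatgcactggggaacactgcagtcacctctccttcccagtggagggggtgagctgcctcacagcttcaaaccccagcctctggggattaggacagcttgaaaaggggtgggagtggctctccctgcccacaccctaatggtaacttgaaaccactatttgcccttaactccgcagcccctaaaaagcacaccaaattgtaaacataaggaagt
Ifitm2: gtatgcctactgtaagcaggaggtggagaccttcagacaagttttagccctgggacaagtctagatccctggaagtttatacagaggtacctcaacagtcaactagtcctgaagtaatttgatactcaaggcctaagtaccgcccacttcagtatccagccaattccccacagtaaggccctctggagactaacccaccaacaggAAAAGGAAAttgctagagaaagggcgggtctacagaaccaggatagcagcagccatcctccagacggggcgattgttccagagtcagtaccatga
Ifitm3: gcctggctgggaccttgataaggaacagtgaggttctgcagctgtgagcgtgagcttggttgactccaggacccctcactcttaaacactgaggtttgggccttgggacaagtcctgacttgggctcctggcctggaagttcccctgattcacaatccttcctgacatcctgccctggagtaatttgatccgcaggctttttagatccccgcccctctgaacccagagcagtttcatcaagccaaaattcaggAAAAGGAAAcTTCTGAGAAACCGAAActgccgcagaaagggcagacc

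The Ifitm3 window held 2 matches to the response element core, at bases 4 to 12 and 21 to 29 after the start. It also held 1 match to the gamma-activated site core, at bases 14 to 22, which shares its last bases with the second of these matches. The Ifitm2 window held 1 response element match, at bases -45 to -37, and its 9 letters are the same as those of the first match in Ifitm3. The Ifitm1 window held neither core. GENCODE places 2 of the 3 Ifitm1 starts (140968028 and 140968040) inside this window and the third upstream of it at 140967221, which the window does not reach. Over all 32851 windows, 10.6% held the response element core and 8.30% the gamma-activated site core. Of 46 interferon-induced genes with a window, 34 (73.9%) held the response element core in at least 1 window, beside 12.1% of all genes. These matches describe letters and not binding.

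The labels were checked against markers. The 8 CD8 T cell markers were above 5 CPM (the counts-per-million scale, over effective library size) in every library, and their summed level was 2962 CPM in effector memory, 4462 in central memory and 5606 in naive. Cd3e, a chain of the receptor complex, was at 335, 418 and 395 CPM in the same order. The CD8 chain genes were lowest in effector memory, with Cd8a at 408, 1063 and 1868 CPM and Cd8b1 at 276, 540 and 1055 CPM; the part of this in the Ifitm values was not tested. Cd44, an adhesion receptor of antigen-experienced cells, was at 113, 45.8 and 2.95 CPM in the same order. Total counts ranged from 26876909 to 35846315, and 3 counts corresponded to 0.0938 CPM in effector memory, 0.0837 in central memory and 0.108 in naive. The libraries also differed in receptor use. Trbv12-1, a variable segment of the receptor beta chain, made up 98.4% and 99.6% of Trbv counts in the effector memory and central memory libraries. In naive it made up 7.13%. The wild type and untreated labels do not mention this difference, and its part in the Ifitm values was not tested.

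Ifitm1 was among the most abundant transcripts of the effector memory library and almost absent from naive. It had 33380 counts in effector memory, 230 in central memory and 0 in naive, which are 1044, 6.42 and 0 CPM. The effector memory library thus stood far above both others. The central memory library was above naive, where the counting interval of 0 counts reaches 0.133 CPM. Ifitm1 was 163-fold higher in effector memory than in central memory (interval 143 to 186). Against naive, taken at 3 counts, it was at least 9681-fold higher in effector memory and at least 59.6-fold higher in central memory. The counting intervals, computed from the 0 counts themselves, have lower ends below these folds, at 7873-fold and 48.04-fold. Fewer cells of a type and less RNA per cell cannot be told apart in such bulk samples.

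Ifitm3, the member best known for restricting influenza virus, had 8228 counts in effector memory, 46 in central memory and 12 in naive, or 257, 1.28 and 0.431 CPM. It was the only member of the 3 with counts in the naive library. Ifitm3 was 200-fold higher in effector memory than in central memory (interval 150.1 to 274) and 597-fold higher than in naive (interval 341 to 1155). Central memory was 2.98-fold above naive (interval 1.55 to 6.17), with both libraries below 5 CPM.

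Ifitm2, whose human counterpart is an endosomal protein, was the lowest of the 3 in effector memory. It had 3710 counts there, 13 in central memory and 0 in naive, or 116, 0.363 and 0 CPM. The effector memory level was again far above both others, and the 13 counts in central memory correspond to an interval of 0.193 to 0.621 CPM. Ifitm2 was 320-fold higher in effector memory than in central memory (interval 187 to 601). Of the 9975 genes that reached 5 CPM in either library, this ratio ranked 4th, that of Ifitm3 11th and that of Ifitm1 18th. The contrast chose the members, so the ranks are a description. Against naive, again taken at 3 counts, Ifitm2 was at least 1076-fold higher in effector memory. On 13 counts, it was at least 3.37-fold higher in central memory. The counting intervals, computed from the 0 counts themselves, have lower ends below these folds, at 875-fold and 2.37-fold.

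**Figure D1:**
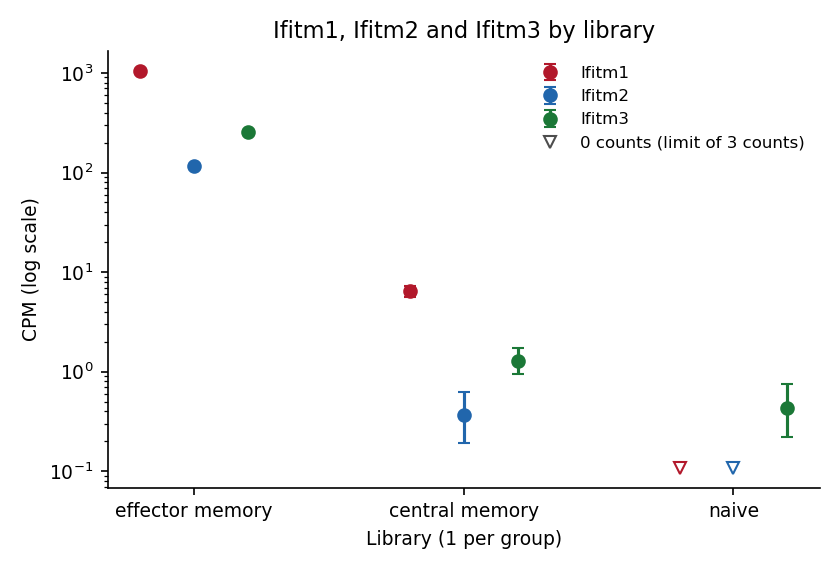
CPM of Ifitm1, Ifitm2 and Ifitm3 (log scale) in the effector memory, central memory and naive libraries, 1 library per group. Bars are 95% counting intervals and open triangles stand at 3 counts where a gene had 0 counts. The effector memory values, 116 to 1044 CPM, lie above all central memory values, 0.363 to 6.42 CPM.

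A call required 5 CPM in whichever library was higher, a difference of 2-fold or more, and a counting interval that left out 1. By this rule of size, which is no test, all 3 genes were called higher in effector memory than in central memory, as were 14.8% of the 9975 genes measured. All 3 were called higher in effector memory than in naive, as were 22.3% of 10087 genes. In central memory against naive, Ifitm1 alone reached 5 CPM and was called higher, as were 11.2% of 9737 genes. These contrasts chose the members, so nothing is read from their counts.

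Levels between the genes were compared per length, as RPKM (CPM divided by exon length in kilobases), over 1094 exon bases for Ifitm1, 655 for Ifitm2 and 678 for Ifitm3. In effector memory the levels were 954 RPKM for Ifitm1, 379 for Ifitm3 and 177 for Ifitm2, which placed them 36th, 109th and 207th among 25258 genes with a length. Per length, Ifitm1 stood 2.51-fold above Ifitm3 (interval 2.45 to 2.58), and Ifitm3 stood 2.14-fold above Ifitm2 (interval 2.06 to 2.23). In central memory the order was the same, at 5.87 RPKM for Ifitm1, 1.89 for Ifitm3 and 0.554 for Ifitm2. There Ifitm1 stood 3.10-fold above Ifitm3 (interval 2.25 to 4.35), and Ifitm3 stood 3.42-fold above Ifitm2 (interval 1.82 to 6.90). In naive, only Ifitm3 had a level, 0.636 RPKM.

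The order of shares in the summed counts was the same in both memory libraries, with Ifitm1 first, then Ifitm3 and then Ifitm2. The sums differed widely, at 45318 counts in effector memory, 289 in central memory and 12 in naive. Ifitm1 made up 73.7% of the sum in effector memory (exact binomial interval 73.2% to 74.1%) and 79.6% in central memory (interval 74.5% to 84.1%). Ifitm3 made up 18.2% in effector memory and 15.9% in central memory (intervals 17.8% to 18.5% and 11.9% to 20.7%). Ifitm2 made up 8.19% in effector memory and 4.50% in central memory (intervals 7.94% to 8.44% and 2.42% to 7.57%). The counting intervals of the 2 memory libraries overlapped for Ifitm3 but not for Ifitm1 or Ifitm2. The shares are parts of the same sum, so these are not separate results. The intervals cover counting error only, and shares within other sets of genes were not compared, so no difference in make-up is read from them. In naive all 12 counts were from Ifitm3, which allows an Ifitm1 share of up to 26.5%.

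**Figure D2:**
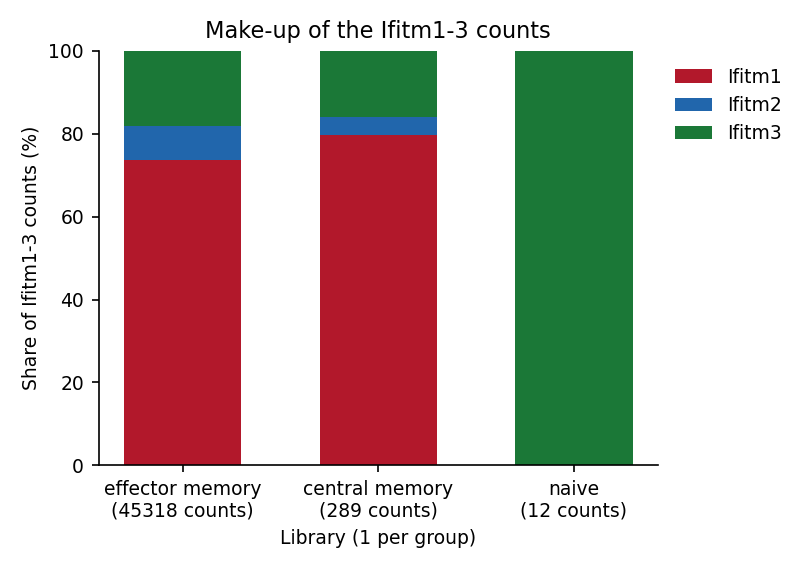
Share of the summed Ifitm1, Ifitm2 and Ifitm3 counts (percent) held by each gene in the effector memory, central memory and naive libraries. Ifitm1 holds 73.7% in effector memory and 79.6% in central memory, while the naive bar rests on 12 counts, all of Ifitm3.

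Similar sequence could move reads between the genes. Of the stretches of 50 bases in each spliced transcript, 5.02% of those of Ifitm1 and 10.02% of those of Ifitm3 also occurred in a transcript of another gene. At 100 bases neither gene shared any. Ifitm2 is less certain, because 268 of its 655 exon bases (40.9%) lie in an exon of Gm45717, a gene model on the same strand that also reaches into Ifitm5. How the authors' counting treated reads in that exon is not stated in the labels, and Gm45717 was listed at 0 in all 3 libraries. Over its remaining 387 bases Ifitm2 would stand at 299.8 RPKM in effector memory, below Ifitm3. This takes all 387 bases as countable, though reads that reach into the shared exon could be lost too. The order of Ifitm2 and Ifitm3 per length is therefore not settled. Of all Ifitm2 stretches, 22.8% of those of 50 bases and 4.68% of those of 100 bases occurred in a gene other than Gm45717.

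The other genes of the family were at low levels or had another order. Ifitm5, which in mouse is known from bone-forming cells and lies beside Ifitm2, had 18, 0 and 2 counts in effector memory, central memory and naive. It too was highest in effector memory, below 5 CPM. There it was at least 6.72-fold above central memory taken at 3 counts, with a lower interval end of 4.92. It was 7.83-fold above naive (interval 1.87 to 69.6). Ifitm6 had 1 count in effector memory and 0 in the other 2 libraries, and Ifitm7, on chromosome 16, had 0 in all 3. Ifitm10, a more distant relative on chromosome 7, was highest in central memory, at 2.44, 10.3 and 4.96 CPM. It was 4.21-fold lower in effector memory than in central memory (interval 3.29 to 5.45). Prrt1, of the same wider dispanin family and known from synapses, was at 3.66, 32.6 and 29.3 CPM, 8.90-fold lower in effector memory than in central memory (interval 7.36 to 10.9). Both were called lower, as were 12.8% of all genes in that comparison.

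Interferon-induced genes as a list did not share the order of Ifitm1, Ifitm2 and Ifitm3. This contrast was part of how the 3 genes were chosen, so it is described here and is no finding about them. Of 59 listed genes in the table, 42 had at least 5 CPM in effector memory or central memory; 2 were called higher in effector memory, 14 lower and 26 in neither direction, while 14.8% of all genes were called higher and 12.8% lower. Their median log2 ratio was -0.66, beside -0.06 over all genes. The 2 higher genes were Isg20, an RNA exonuclease, at 44.9 and 12.2 CPM (3.68-fold, interval 3.30 to 4.10), and Mx1, an antiviral GTPase, at 47.0 and 15.8 CPM (2.97-fold, interval 2.70 to 3.28). Neither ratio came near the 163-fold to 320-fold of Ifitm1, Ifitm3 and Ifitm2.

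Among the 14 lower genes were Ddx60, a helicase, 9.28-fold lower (interval 7.35 to 11.9), and Usp18, the protease that removes ISG15 from proteins, 5.74-fold lower (interval 4.43 to 7.54). Slfn5 was 5.62-fold lower, Ifi203 4.54-fold lower, Rtp4 4.28-fold lower and Trim30d 3.76-fold lower. Isg15 itself, a ubiquitin-like modifier, stood at 3.78 CPM in effector memory and 4.63 in central memory. Irf7, a transcription factor of the interferon response, stood at 29.6 and 45.6 CPM and was called in neither direction. Against naive the gap was wider: of 54 measured genes, 1 was called higher in effector memory (Isg20, 2.24-fold) and 37 lower, beside 22.3% of all genes called higher and 15.6% lower. The median log2 ratio was -1.76, beside 0.06 over all genes. Ifit3, which binds viral RNA together with Ifit1, had 14 counts in effector memory and 2013 in naive. In central memory against naive, 27 of 54 were called lower and 0 higher (median log2 ratio -1.01, beside 0.14 over all genes), while 11.2% of all genes were called higher and 5.12% lower. Over the 3 libraries, 4 of the 54 genes had their highest level in effector memory, 4 in central memory and 46 in naive. Of all 10226 genes at 5 CPM, 40.1% were highest in effector memory, 30.7% in central memory and 29.2% in naive. Ifi203, Trim30d and Ifit3 have close relatives among the mouse genes, so their counts are uncertain where the counting could split reads.

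**Figure D3:**
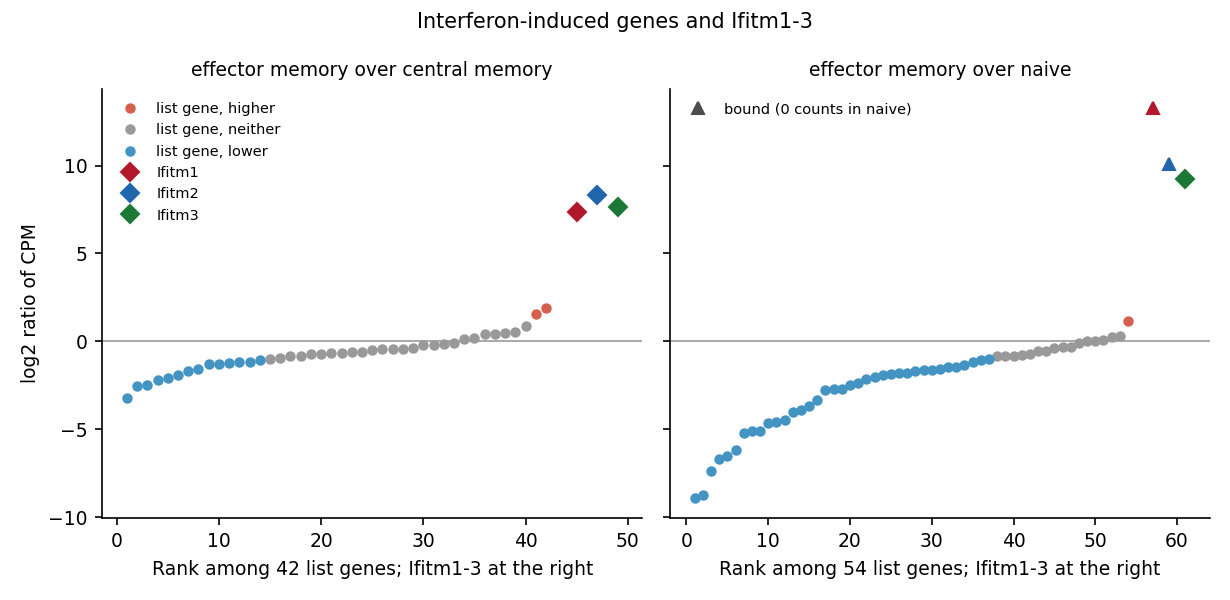
Log2 ratio of CPM for the interferon-induced genes, in rank order, with Ifitm1, Ifitm2 and Ifitm3 at the right, for effector memory over central memory (42 genes) and effector memory over naive (54 genes). Triangles are bounds computed against 3 counts; the highest list gene is Isg20 in both panels, far below the 3 Ifitm genes.

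Genes that respond mainly to interferon gamma were mostly called in neither direction. Of 26 measured in effector memory against central memory, 2 were called higher and 0 lower, beside 14.8% and 12.8% of all genes. Their median log2 ratio was 0.17, beside -0.06 over all genes. Their highest level was in effector memory for 12, in central memory for 5 and in naive for 9. The 2 were Irf8, a transcription factor of the interferon regulatory family, 5.87-fold higher (interval 5.41 to 6.39), and Gbp6, a guanylate-binding protein with close copies, 2.75-fold higher. Irf8 stood at 110.8 CPM in effector memory, 18.9 in central memory and 6.58 in naive, and was 16.8-fold higher in effector memory than in naive (interval 14.5 to 19.7). Against naive 1 of 26 was called higher and 2 lower in effector memory, beside 22.3% and 15.6% of all genes. In central memory against naive 2 were called higher and 3 lower, beside 11.2% and 5.12% of all genes.

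No receptor or signal carrier of interferon was called higher in effector memory than in central memory. Of 13 measured genes 0 were called higher and 4 lower, beside 14.8% and 12.8% of all genes. The median log2 ratio was -0.58, beside -0.06 over all genes. Ifnar1 and Ifnar2, the chains of the type I receptor, were 2.29-fold lower (interval 2.21 to 2.37) and 2.87-fold lower (interval 2.68 to 3.08). Socs3, a feedback inhibitor, was 5.15-fold lower, and Il10rb 2.56-fold lower. Ifngr1, a chain of the interferon gamma receptor, was at 412 CPM in effector memory and 482.5 in central memory, against 136 in naive. The other chain, Ifngr2, went the other way, at 3.35, 2.37 and 43.0 CPM in effector memory, central memory and naive. It was 12.9-fold lower in effector memory than in naive (interval 10.5 to 15.8). Against naive, 1 of 14 genes was called higher and 4 lower in effector memory, beside 22.3% and 15.6% of all genes. In central memory against naive 2 were called higher and 1 lower, beside 11.2% and 5.12% of all genes. Ifng, which encodes the cytokine, was below 5 CPM, at 1.28 CPM in effector memory, 1.06 in central memory and 0.180 in naive.

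The list of genes for proteins known from human or mouse cells to modify, sort or bind IFITM proteins had no call between the memory libraries. Of 15 measured, 0 were called in either direction (median log2 ratio -0.20), beside 14.8% of all genes called higher and 12.8% lower. Zdhhc20, a palmitoyltransferase for IFITM3, was at 93.7 CPM in effector memory and 107.6 in central memory. Zmpste24, a membrane protease that acts together with IFITM proteins, was at 76.4 and 62.2 CPM, and Vapa, a contact-site protein bound by IFITM3, at 74.6 and 57.5 CPM. Against naive, Vcp, an ATPase that sorts IFITM3, was 2.62-fold higher in effector memory (interval 2.52 to 2.71). Zdhhc20 was 2.27-fold lower and the kinase Fyn, which phosphorylates the sorting signal, 2.14-fold lower. Cd81, a tetraspanin that binds IFITM1 on human B cells, was below 5 CPM, at 3.97, 1.28 and 1.55 CPM in effector memory, central memory and naive. It was 3.09-fold higher in effector memory than in central memory (interval 2.19 to 4.43).

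Of the 30 other table genes within 250 kb of the cluster, 15 had at least 5 CPM in a library, and in effector memory against central memory 3 were called higher and 0 lower, beside 14.8% and 12.8% of all genes (median log2 ratio 0.35, beside -0.06 over all genes). B4galnt4, a glycosyltransferase gene 50.3 kb beyond Ifitm3, stood at 52.7 CPM in effector memory, 1.62 in central memory and 6.54 in naive. It was 32.5-fold higher in effector memory than in central memory (interval 25.03 to 43.02). Between Ifitm3 and B4galnt4 the table lists Ifitm6 and Gm17387, with a single count between them. The other 2 were Pgghg, a sugar hydrolase gene on the side of Ifitm2, 2.62-fold higher (interval 2.36 to 2.90), and Lmntd2, 2.11-fold higher. Ratios of the 12 genes called in neither direction ranged from 0.702 for Bet1l to 1.96 for Psmd13, a proteasome subunit. Sigirr, an inhibitory member of the interleukin 1 receptor family 80.4 kb away, was at 115.7 and 112 CPM. Against naive, 8 of the 15 were called higher in effector memory and 0 lower, beside 22.3% and 15.6% of all genes (median log2 ratio 1.03, beside 0.06 over all genes). Among the 8 were Lmntd2 (5.12-fold), Rnh1, a ribonuclease inhibitor (4.06-fold), and B4galnt4 (8.05-fold). In central memory against naive, 3 were called higher and 1, B4galnt4, lower, beside 11.2% and 5.12% of all genes. Lmntd2 overlaps Lrrc56 and Psmd13 overlaps Sirt3 on the opposite strand, and without strand reads in the overlaps cannot be told apart.

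**Figure D4:**
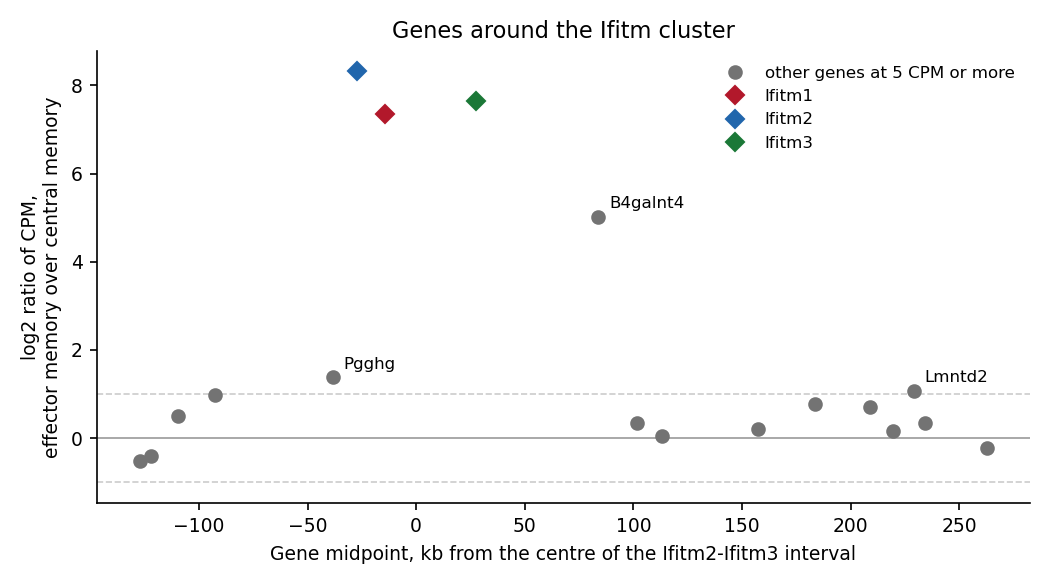
Log2 ratio of CPM, effector memory over central memory, against the distance of each gene's midpoint from the centre of the Ifitm2 to Ifitm3 interval (kb), for genes that reached 5 CPM in 1 of them. Dashed lines mark a ratio of 2 in either direction; Ifitm1, Ifitm2 and Ifitm3 lie above 7, B4galnt4 at 5.02 and the remaining genes below 1.5.

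By the distance between centred log2(CPM + 1) profiles over the 3 libraries, with 8122 genes of at least 20 CPM compared, Ifitm2 and Ifitm3 were each among the 5 nearest of the other, at a distance of 0.45. The nearest gene to Ifitm3 was Fads2, a fatty acid desaturase, at 0.20 (147, 0.502 and 0 CPM in effector memory, central memory and naive). The nearest to Ifitm2 was Ltb4r1, a leukotriene B4 receptor, at 0.21 (103.8, 0.502 and 0 CPM). Bnip3, which acts in the removal of mitochondria, was among the 5 nearest of both, and Emp1, a tetraspan membrane protein, among those of Ifitm2. Ifitm1 had no neighbour as close. Its nearest were Emilin2, an extracellular matrix glycoprotein, at 1.26, the lactate exporter Slc16a3 at 1.81, Ifitm3 at 1.95, Havcr2, which encodes the inhibitory receptor TIM-3, at 1.96, and the transcriptional repressor Zbtb32 at 2.02. Emilin2 was also among the 5 nearest to Ifitm3. With a pseudocount of 0.5 CPM, 2 of the 5 genes nearest to Ifitm1, 4 of those nearest to Ifitm2 and 3 of those nearest to Ifitm3 were kept. The list for each gene rests on 3 values per gene and says nothing of shared control.

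**Figure D5:**
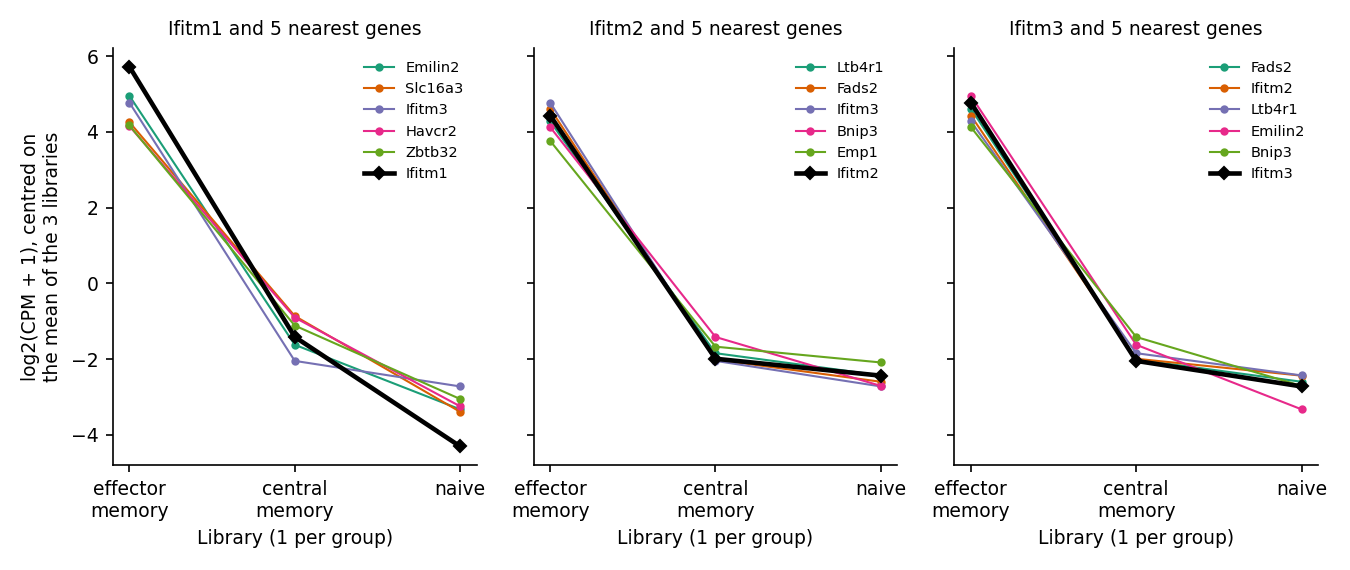
Centred log2(CPM + 1) of each Ifitm gene (black) and its 5 nearest genes (colours) in the effector memory, central memory and naive libraries. The Ifitm2 line runs close to those of Ltb4r1 and Fads2 and the Ifitm3 line close to that of Fads2, while Ifitm1 lies above its neighbours in effector memory and below them in naive.

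Myeloid, NK and stromal cells can also express Ifitm genes, so markers of other cell types were read in the same libraries. Of 13 monocyte and macrophage markers, 11 were at 0 in effector memory, among them Csf1r, Lyz2, Adgre1 and C1qa. Their summed level was 24.1 CPM in effector memory, 4.27 in central memory and 6.97 in naive, and 21.1 of the 24.1 CPM came from Cd68, a lysosomal protein also found outside myeloid cells. The remaining 3.03 CPM came from Cd14, and the part of either gene's source in the Ifitm values was not tested. Neutrophil markers summed to 0.313, 0 and 0.108 CPM. The NK receptor genes Ncr1, Klra4, Klra7, Klra8 and Klra9 were at 0 in effector memory and had 34 to 437 counts in central memory. Fcer1g, a receptor signalling chain, and Eomes, a transcription factor also used by memory T cells, had the order of the Ifitm genes. Fcer1g was at 10.4, 7.96 and 0.288 CPM and Eomes at 79.9, 74.4 and 38.1 CPM in effector memory, central memory and naive. The remaining genes of that list, Klrb1c, Klre1 and Tyrobp, were highest in central memory. They were at 33.0, 11.7 and 5.02 CPM there, against 1.91, 2.03 and 0.813 CPM in effector memory. The whole NK list of 10 genes summed to 95.1, 156 and 39.1 CPM, with 5 at 0 in effector memory and in naive, and its part in the Ifitm values was not tested. Of the 7 endothelial and stromal markers Cdh5, Kdr and Col3a1 were at 0 in effector memory, and the list summed to 55.5, 172 and 153 CPM, nearly all from Pecam1. Col1a2 had 28, 0 and 0 counts and Pdgfrb 14, 2 and 8 counts in the same order of libraries. B cell markers summed to 2.81, 6.50 and 37.1 CPM, with Ms4a1 at 0 in both memory libraries. Dendritic cell markers summed to 21.8, 118 and 3.38 CPM, with Siglech and Flt3 at 0 in all 3 libraries and Itgax, an integrin, holding 115 of the 118 CPM. In effector memory Xcr1, a chemokine receptor, held 12.3 of the 21.8 CPM, and its part in the Ifitm values was not tested. Lists for CD4 T cells, plasma cells, mast cells and basophils, erythroid cells and platelets summed to 0.719 to 5.63 CPM in effector memory, 0.698 to 3.46 CPM in central memory and 0.791 to 6.40 CPM in naive. Among their members, Mcpt8, a basophil protease, had 98, 13 and 0 counts. Sdc1, a plasma cell proteoglycan, had 42, 9 and 4, and Epor, the erythropoietin receptor, had 35, 4 and 1. Other members of the same lists did not have that order. Foxp3 had 5, 61 and 110 counts, Cpa3 82, 111 and 60, and Itga2b 76, 75 and 107. Derl3 had 7, 11 and 16 counts and Alas2 12, 19 and 25. The part of these cell types in the Ifitm values was not tested.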

How the data were processed

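The deposited table holds the authors' whole-number read counts per gene symbol, 1 column per group, matched to the samples by the abbreviations TEM, TCM and TN. Build mm10 and the tools featureCounts 1.5.0-p3, HISAT2 2.0.5 and CASAVA appear, per the submitters' processing notes, without roles. The annotation, the strand setting and the handling of reads with several matches were not given in the labels or file. From these counts, CPM were computed with edgeR 4.0.16 and its TMM (trimmed mean) factors (0.967 for effector memory, 0.999 for central memory, 1.04 for naive). Ratios have exact (Clopper-Pearson) 95% counting intervals, and 0 counts were replaced by 3 for bounds but not in the intervals. No p-value was computed. The calling rule was checked on simulated Poisson counts. Exon lengths are the union of exons in GENCODE M21, which matched 98.5% of names. Symbols matched by name only.

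The members and gene lists were chosen with earlier results of these data known. Named were all Ifitm genes, called list members with the largest ratios (up to 6 in effector memory against central memory, up to 4 otherwise), genes within 250 kb at 5 CPM, the 5 nearest profiles and marker genes; Mx1, Isg20, Isg15, Irf7, Ifng, Prrt1 and the unmoved partners were named after their values were seen. Alternatives were scaling by total counts, by upper quartile factors or by size factors of DESeq2 1.42.0, other minimum levels, ratios, pseudocounts and stretch lengths, and lengths without overlapping exons, the last added after seeing the data. Other tools were R 4.3.3, Python 3.11.15, NumPy 2.4.6, SciPy 1.17.1, pandas 2.3.3, Biopython 1.88 and matplotlib 3.10.9.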

Additional observations from a re-analysis of the deposited data

How the results depend on the processing

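Under total counts, DESeq2 size factors and upper quartile factors the 9 ratios of Ifitm1, Ifitm2 and Ifitm3 kept their direction and stayed within their counting intervals. In effector memory against central memory they ranged from 157 to 171 for Ifitm1, 309 to 337 for Ifitm2 and 194 to 211 for Ifitm3. The bounds against naive ranged from 9019 to 9681 for Ifitm1 and 1002 to 1076 for Ifitm2. These scalings moved the log2 ratio of all genes by at most -0.12, in central memory against naive with upper quartile factors. No paired analysis was possible because each group has 1 library.

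Divided by exon length, the shares of Ifitm1, Ifitm2 and Ifitm3 were 63.2%, 11.7% and 25.1% in effector memory, and those of Ifitm1 and Ifitm3 were 70.6% and 22.8% in central memory. Over exon bases of no other gene they were 58.4%, 18.4% and 23.2% in effector memory and 67.5%, 10.8% and 21.8% in central memory. Stretches shared with another gene were 5.02% for Ifitm1, 48.5% for Ifitm2 and 10.02% for Ifitm3 at 50 bases. They were 0.582%, 41.997% and 0.662% at 75 bases, and at 150 bases 23.5% for Ifitm2, beside 34.9% at 100 bases. With a pseudocount of 0.5 CPM, 2 of the 5 genes nearest to Ifitm1 and 3 of the 5 nearest to Ifitm3 were kept.

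Called list members, either direction, moved by over 1.5 times as follows. The shares of all genes called under these settings are not given, so nothing about the lists is read from these counts. With a ratio of 1.5 in effector memory against central memory, 27 interferon-induced, 8 interferon gamma-preferential, 2 partner, 7 other antiviral (beside 2) and 6 neighbouring genes were called. Against naive it gave 12 gamma-preferential, 8 receptor and signalling, 5 partner and 5 other antiviral genes in effector memory, and 9, 7, 3 and 7 in central memory, with 9 neighbouring genes. With a ratio of 4 in effector memory against central memory, 5 interferon-induced genes were called and 1 each of the gamma-preferential, receptor, other antiviral and neighbouring genes. Against naive it gave 23 interferon-induced, 2 receptor, 0 partner and 3 neighbouring genes in effector memory, and 15, 1, 0 and 1 in central memory, with 0 gamma-preferential and 1 other antiviral gene. At a minimum of 20 CPM, 5 neighbouring genes were called in effector memory against naive and 1 in central memory against naive. At 1 CPM, 5 gamma-preferential genes were called in effector memory against naive and 1 partner gene in effector memory against central memory, Cd81. Total counts gave 5 gamma-preferential genes in effector memory against naive, 2 partner genes in central memory against naive and 1 partner gene in effector memory against central memory. Upper quartile factors gave 5 and 2 in the first 2 of these, and DESeq2 size factors gave 2 partner genes in central memory against naive and 4 other antiviral genes in effector memory against central memory. The cause was not tested. Over all genes the median log2 ratio of effector memory against central memory was 0.02 with DESeq2 size factors, and against naive it was -0.05 with total counts or upper quartile factors.

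With 1 library per group, only counting error could be computed, and variation between libraries of a group was not measured. Where Ifitm1, Ifitm2 or Ifitm3 had counts, the thinnest values were the 13 Ifitm2 counts of central memory and the 12 Ifitm3 counts of naive.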

Other observations

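Other antiviral factors of membranes and lipids differed in order: of 10 measured, 3 were highest in effector memory, 7 in central memory and 0 in naive. Of the 10, 0 were called higher in effector memory than in central memory (2 with DESeq2 size factors) and 2 lower, beside 14.8% and 12.8% of all genes. The median log2 ratio was -0.24, beside -0.06 over all genes. The 2 lower genes were Trim5 and Samhd1. Trim5, whose primate counterpart is known to act on incoming retroviruses, was 5.45-fold lower (interval 4.88 to 6.10). Samhd1, which depletes nucleotides, was 2.46-fold lower (interval 2.41 to 2.51). Ly6e, a membrane protein of the Ly6 family, was at 777 CPM in effector memory and 874 in central memory, and Bst2, which tethers budding virus, at 81.6 and 53.1 CPM. March8, a ubiquitin ligase of membrane proteins, had the order of the Ifitm genes, at 12.3, 6.20 and 0.288 CPM in effector memory, central memory and naive. It was 42.6-fold higher in effector memory than in naive (interval 21.4 to 99.4) and 21.6-fold higher in central memory than in naive (interval 10.8 to 50.5). Serinc3, which is incorporated into virus particles, had the same order, at 852, 437 and 172 CPM. It was 1.95-fold higher in effector memory than in central memory (interval 1.91 to 1.99), 4.95-fold higher in effector memory than in naive (interval 4.80 to 5.11) and 2.54-fold higher in central memory than in naive. Ly6e and Bst2 were chosen after their values were seen.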
